A study of Mus musculus with 2 samples.

Results

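Of the 4390 barcodes in the filtered matrices of a pair of tumor libraries, 1002 (22.8%) took more than 1 in 8 of their unique molecular identifiers (UMIs, 1 per captured RNA molecule) from the 13 counted genes of the mitochondrial genome, whose symbols start with mt-, while holding no more than 27000 UMIs. These are the limits of the study's own filter, which set such barcodes aside, so the members were chosen by a measured value and their high mitochondrial share is not a result. Both libraries held GR-1+ cells taken by magnetic positive selection from tumors of the mouse 4T1 line, a triple-negative mammary carcinoma, grown in the mammary fat pad of female BALB/c mice of 8 to 10 weeks and treated with anti-PD1 for 2 weeks. The library labelled 4T1p came from the parental clone, which resists anti-PD1, and the library labelled 4T1m from polyclonal cells that had been exposed to the mutagen MNNG and respond to it; each condition had 1 library, the number of animals behind it is not given in the labels, and no library of untreated animals was analysed here. Tumors were digested with collagenase IV and DNase I before selection, and RNA was captured at the 3′ end with the 10x v3 chemistry. The libraries held 9021132 UMIs in 1641 barcodes (4T1p) and 14840190 UMIs in 2749 barcodes (4T1m), and no barcode sequence occurred in both. The median UMI count of each library was the one that the study's methods give for the other condition, so the libraries are named by their labels throughout and no difference between them is read as one between tumors.

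Mitochondrial transcripts are made and kept inside the organelle, behind its own membranes, whereas most messenger RNA lies free in the cytosol and some long non-coding RNA stays in the nucleus. A cell whose outer membrane leaks during tissue digestion can lose cytosolic RNA while keeping RNA held in organelles, and a high mitochondrial share is widely used for that reason to set aside damaged cells. Cells rich in mitochondria have a high share too. GR-1 antibodies bind Ly6C and Ly6G, so the selection takes monocytes and granulocytes; neutrophils are known to hold few mitochondria.

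A few transcripts that recur in the results are easier to read with their sequence in view. Gm26870, a predicted non-coding gene on the minus strand of chr9:3000282-3038313 (mm10), is a tandem array. The first unit of 1 of its Ensembl transcripts is printed to show the repeat, a unit of the mouse major satellite that fills the chromatin around centromeres. In that transcript 95.9% of the bases equal the base 234 positions further on, and in its other transcripts 81.5% and 78.3%.
Gm26870 repeat unit, chr9:3038077-3038310, minus strand: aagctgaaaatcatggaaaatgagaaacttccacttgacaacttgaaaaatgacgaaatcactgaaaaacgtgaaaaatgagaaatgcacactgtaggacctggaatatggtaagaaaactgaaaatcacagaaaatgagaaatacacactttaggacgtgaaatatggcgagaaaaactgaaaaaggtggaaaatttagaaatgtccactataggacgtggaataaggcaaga
Of 28172 gene models, 13 (0.0461%), Gm26870 itself included, had at least 10% of their own 12-base words in this gene's transcripts, Gm10800 and Gm10801 on chromosome 2 and Gm10717 and Gm10719 on chromosome 9 among them, and reads of such models cannot be told apart with certainty. Gm20594, on the plus strand of chr6:79817916-79818364, is 1 of 2 counted models outside the mt- genes that share 25-base words with a mitochondrial transcript. Its match is to mt-Rnr2, the 16S ribosomal RNA of the mitochondrion, which is not itself among the counted genes. The stretches below are from the Ensembl transcripts, and capitals mark the longest unbroken run of identical bases, 65; bases beside it match as well, past mismatches.
Gm20594, chr6:79818268-79818362, plus strand: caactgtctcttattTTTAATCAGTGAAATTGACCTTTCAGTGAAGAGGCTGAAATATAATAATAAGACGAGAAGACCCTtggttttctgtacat
mt-Rnr2, chrM:2087-2181, plus strand: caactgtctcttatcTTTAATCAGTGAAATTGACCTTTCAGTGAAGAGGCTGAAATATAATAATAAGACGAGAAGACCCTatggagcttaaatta
A UMI counted for Gm20594 can therefore come from the nuclear copy or from the organelle's ribosomal RNA, and the counts do not say which. Gm42418, on the plus strand of chr17:39846958-39848788, lies over a copy of the cytosolic ribosomal RNA precursor, as does AY036118, which overlaps it on the minus strand, and Gm26917 lies just before it at chr17:39843013-39846341.

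The share of barcodes above the limit was 27.9% in the library labelled 4T1p (443 of 1585 barcodes within the UMI limit; exact 95% binomial interval 25.8 to 30.2) and 20.8% in the library labelled 4T1m (559 of 2693; 19.2 to 22.3). Intervals here and below cover counting error only, and with 1 library per condition no test between conditions was possible. Within the members, the mitochondrial share ranged from 12.6% to 99.4% with a median of 50.1% in 4T1p, and from 12.55% to 98.7% with a median of 25.1% in 4T1m. In 4T1p, 166 of the 443 barcodes (37.5%) had more than 75% mitochondrial UMIs, against 45 of 559 (8.05%) in 4T1m, so more of the members of the library labelled 4T1p had a very high share. The limit did not fall in a gap: the members nearest to it had 12.6% and 12.8% in 4T1p and 12.55% and 12.58% in 4T1m, and the nearest barcodes outside it had 12.4% and 12.3% in 4T1p, while in 4T1m 1 barcode lay exactly on the limit and the next had 12.48%. The members held 69.2% of all mitochondrial UMIs in 4T1p and 54.4% in 4T1m, but only 11.7% and 10.2% of the UMIs outside the mt- genes. A doublet caller marked 5 members in 4T1p and 27 in 4T1m.

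**Figure D1:**
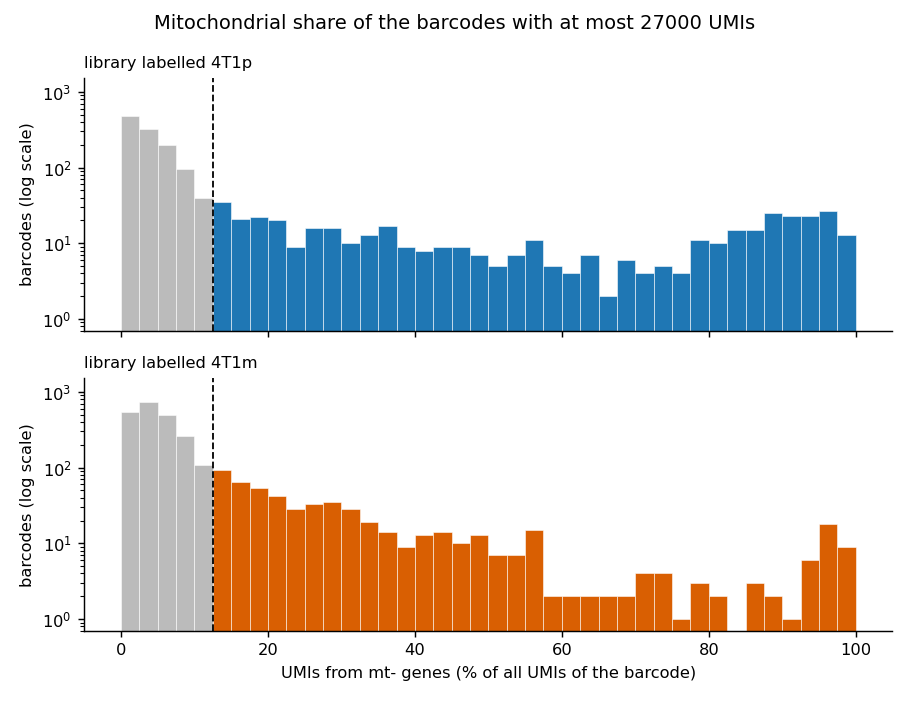
Number of barcodes (log axis) by the percentage of a barcode's UMIs that came from mt- genes, in bins of 2.5 points, for both libraries; colored bars are barcodes above the dashed limit. The counts fall across the limit without a gap, and in the library labelled 4T1p they rise again towards 90%, where 166 of 443 members lie above 75%.

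Lineage was read from clusters of all barcodes with at least 200 UMIs outside the mt- genes, made without mt- and ribosomal RNA genes and named from marker genes. Of the members, 455 (45.4%) were monocytic-like (markers such as Csf1r, the receptor for the monocyte growth factor, and Apoe and C1qa), 221 (22.1%) granulocytic-like (S100a8, S100a9, Csf3r), 6 B cell-like and 3 T cell-like, 183 belonged to clusters that stayed unnamed, and 134 were too shallow to be clustered. Of the 183, 134 were in cluster 1, which had 12 of the 14 monocytic markers but whose median of 793 UMIs was 0.332 times that of its libraries, under the limit of 1 in 3 set for a cluster with none of its markers among its leading genes. The monocytic-like share of the members was close in both libraries (44.9% in 4T1p, 45.8% in 4T1m), the granulocytic-like share was 14.4% in 4T1p and 28.1% in 4T1m, and the shallow share 23.9% and 5.01%. With the lineage given by marker UMIs the monocytic-like share was 69.8% in 4T1p and 55.6% in 4T1m, so the closeness depends on the assignment. Seen from the lineages, 25.3% of the monocytic-like barcodes lay above the limit in 4T1p (interval 22.3 to 28.5) and 25.3% in 4T1m (22.6 to 28.1). Of the granulocytic-like barcodes, 19.8% lay above it in 4T1p (15.6 to 24.5) and 13.2% in 4T1m (11.3 to 15.3). Among the B cell-like barcodes of 4T1m, 6 of 43 were members, and none of the 6 and 21 erythroid-like barcodes was.

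The members were spread unevenly over the clusters. Cluster 8, monocytic-like by its markers but led by Gm26917, the long non-coding RNAs Xist and Kcnq1ot1, Lars2 and Mki67, held 144 members among its 161 barcodes in 4T1p (89.4%; 83.6 to 93.7) and 132 among 147 in 4T1m (89.8%; 83.7 to 94.2). It supplied 276 of the 455 monocytic-like members but only 32 of the 1343 monocytic-like barcodes at or below the limit. Its hold on the monocytic name was thin. A Csf1r UMI was found in 29.9% of its members in 4T1p and in 22.0% in 4T1m (median depth outside the mt- genes 1296 and 1587 UMIs). In the other monocytic-like members the shares were 63.6% and 52.4%, and in granulocytic-like members 9.38% and 15.9% (2005 and 2091 UMIs). Cluster 14, unnamed and led by Gm10800, Gm10801, Gm10717, Gm10719 and Gm26870, had 13 members of 13 barcodes in 4T1p and 22 of 24 in 4T1m. At the other end, cluster 5, which carries Cx3cr1 and holds the deepest monocytic-like barcodes, had 27 members of 211 and 35 of 338, and cluster 13, led by Thbs1, Vcan and Sdc1, had 0 of 38 and 9 of 163. Among the granulocytic-like clusters, the one led by Camp, Ngp and Ltf, which encode proteins packed into neutrophil granules early in maturation, had 3 of 21 (14.3%) and 9 of 155 (5.81%).

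**Figure D2:**
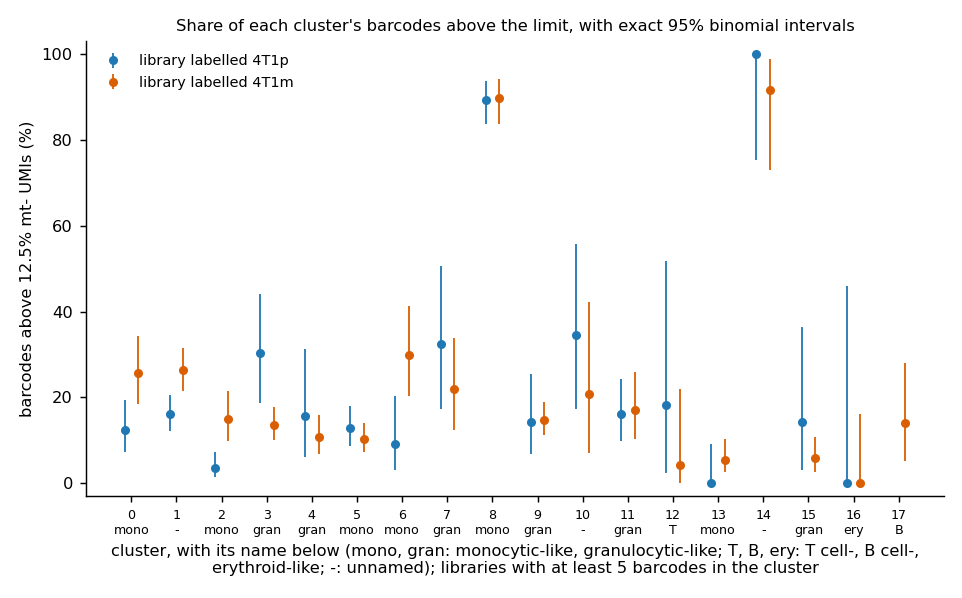
Percentage of the barcodes of each cluster that lie above the mitochondrial limit, per library, with exact 95% binomial intervals; clusters of at least 20 barcodes, and libraries with at least 5 barcodes in the cluster. Clusters 8 and 14 stand near the top in both libraries, cluster 8 at 89.4% and 89.8%, and every other cluster drawn lies below 50%.

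Depth outside the mt- genes is tied to the mitochondrial share by arithmetic, so it is a description. The median member of the monocytic-like lineage had 1460 UMIs outside the mt- genes in 4T1p and 1600 in 4T1m, against 2984 and 8223 at or below the limit. Its mitochondrial UMIs were more in absolute number as well, with medians of 1107 and 796 against 96 and 347. In the granulocytic-like lineage the depth outside the mt- genes was 2005 and 2091 against 2500 and 2342, and the mitochondrial UMIs 861 and 606 against 74 and 83. The rule used the mitochondrial UMIs, so their number is a description too. After each barcode was thinned to 500 UMIs outside the mt- genes, monocytic-like members showed a median of 307 and 326 genes against 331 and 345, and granulocytic-like members 280 and 280 against 256 and 261; unthinned, the medians were 618 and 691 against 1150 and 2421, and 745 and 782 against 803 and 785. The thinning left out 28 and 20 monocytic-like and 7 and 11 granulocytic-like members as too shallow. At equal depth, members thus showed fewer genes than their lineage in monocytic-like and more in granulocytic-like barcodes, but monocytic-like members outside cluster 8 had 340 and 339.5 genes against 331 and 345, so that in 4T1p the former order turned without that cluster.

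**Figure D3:**
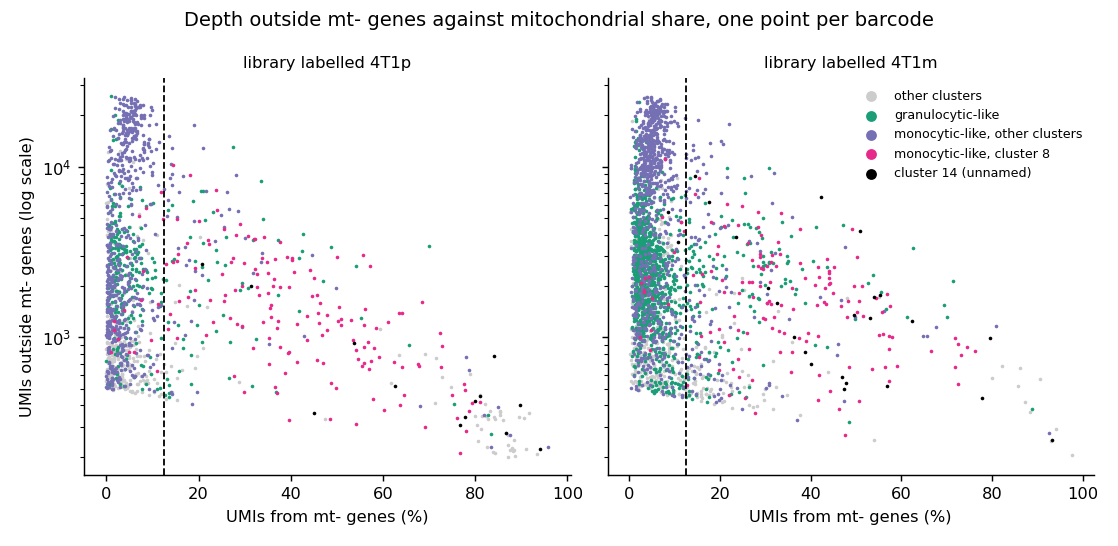
UMIs outside mt- genes (log axis) against the percentage of UMIs from mt- genes, 1 point per clustered barcode, for both libraries; the dashed line is the limit. Cluster 8 (pink) and cluster 14 (black) lie almost wholly to the right of it, and above the limit depth falls as the share rises.

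To find which other genes differed, UMI counts outside the mt- genes were summed per library over members and over barcodes at or below the limit of the same lineage, scaled to counts per 1000000 of these UMIs (CPM), and compared with edgeR's quasi-likelihood test with the library as a block. The libraries stand as the replicates, so the p-values measure the spread of the difference between these libraries only. In monocytic-like barcodes, 779 of 7776 genes tested (10.0%) were higher in members and 850 (10.9%) lower at an adjusted p under 0.05, with a median log2 change over all genes of -0.08. In granulocytic-like barcodes 39 of 3319 genes (1.18%) were higher and 16 (0.482%) lower, with a median of 0.12; with TMM scaling they were 42 and 41. Monocytic-like calls rest in part on scaling and on cluster 8. With Gm42418 and AY036118 out of the totals the split became 1179 higher and 345 lower and the median 0.13, with edgeR's TMM scaling 946 and 613 and 0.01, and with cluster 8 left out, an alternative chosen after seeing the data, 78 and 95. With clusters weighted to the same mix on both sides, 7 and 7 were called, against 38 and 15 in granulocytic-like barcodes weighted in the same way. Among monocytic-like barcodes of 500 to 5000 UMIs outside the mt- genes, 538 of 2464 genes tested (21.8%) were higher and 920 (37.3%) lower. All log2 changes below are members over the rest of their lineage on the first scale.

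Satellite, ribosomal RNA and nuclear non-coding RNA models were higher in monocytic-like members. Gm26870 stood at 252 CPM in members against 16.5 at or below the limit in 4T1p, and at 587 against 84.0 in 4T1m (log2 change 3.28, edgeR adjusted p = 1.68e-35). It stayed called at 3.69 without cluster 8 and at 3.19 with clusters weighted equally (edgeR adjusted p = 0.000218), and Gm20594 (2.72) and Gm26917 (3.09) stayed called as well, at 2.30 and 1.53 and at 1.74 and 1.14. Gm42418 stood at 153535 CPM in members against 13190 at or below the limit in 4T1p, and at 146816 against 18978 in 4T1m (log2 change 3.25, edgeR adjusted p = 1.36e-12). Malat1, a nuclear non-coding RNA, stood at 59004 against 12437 CPM and at 42521 against 17648 (1.76, edgeR adjusted p = 2.44e-05). Xist, the RNA that silences an X chromosome in female cells, stood at 3797 against 821 and at 3179 against 1117 (1.86, edgeR adjusted p = 1.83e-10). In each of these 4 genes with levels given the members of both libraries were above the other barcodes of both libraries. All 5 tested members of the list of nuclear non-coding RNAs were called higher (median 1.86), Gm26917 being 1 of them. Neat1, the scaffold of paraspeckles, was at 1.35 and Kcnq1ot1, the imprinted antisense RNA, at 2.10. All 3 of the list of Gm42418, AY036118 and Lars2 were called higher as well (median 2.10). Beside both lists, 10.0% of all genes were higher. With cluster 8 left out all 5 non-coding RNAs stayed called, Malat1 at 0.68 and Xist at 1.00. With clusters weighted equally only 1 of the 5 was, Gm26917 (edgeR adjusted p = 0.0455), the model that lies just before Gm42418. Malat1 was then at 0.46 and not called (edgeR adjusted p = 0.0573). Gm42418, of the other list, was at 0.59 and stayed called (edgeR adjusted p = 0.0268).

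In cluster 8 the levels of Malat1 and Gm42418 were high on either side of the limit. Its members held 92195 CPM of Malat1 in 4T1p and 76514 in 4T1m, and its 17 and 15 barcodes at or below the limit held 91825 and 60483. Gm42418 was at 222481 and 263365 CPM in its members and at 268791 and 224505 in the rest of the cluster. Monocytic-like members outside cluster 8 were in between, with Gm42418 at 78142 and 79894 CPM against 10702 and 17596, and Malat1 at 22711 and 23003 against 11665 and 17360. These are cluster values, given without a test because the clusters were made from the genes of these same barcodes.

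In 5 lists, of ribosomal, respiratory chain, actin and glycolysis proteins, a part of the genes was called lower in monocytic-like members. Of all genes, 10.9% were lower and 10.0% higher. Of 91 cytosolic ribosomal protein genes tested, 49 were called lower and 0 higher (median -0.66), their sum being 85196 CPM in members against 152072 in 4T1p and 87519 against 124735 in 4T1m. Of 79 nuclear-encoded subunits of the respiratory chain, the partners of the mt- proteins, 39 were lower and 0 higher (median -0.61), and of 73 mitochondrial ribosomal protein genes 22 were lower and 0 higher (median -0.56). Of 15 actin cytoskeleton genes 10 were lower, and of 19 glycolysis and hypoxia genes 9 were lower and 1 higher. Without cluster 8 these counts fell to 1 of 91 ribosomal protein genes, 0 of the respiratory chain and mitochondrial ribosomal protein genes, 2 of the actin genes and 4 of the glycolysis genes, where 95 of all 7605 genes tested were lower. With clusters weighted equally none of these 5 lists had a called gene, and with the ribosomal RNA genes out of the totals 19 cytosolic ribosomal protein, 17 respiratory chain, 7 mitochondrial ribosomal protein and 4 actin genes stayed lower, where 345 of all 7774 were. Among barcodes of 500 to 5000 UMIs outside the mt- genes the cytosolic ribosomal protein genes were lower in 74 of 75 tested and the respiratory chain genes in 73 of 75, where 37.3% of all genes were lower.

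Messengers of the ferritin chains were lower in both libraries. Fth1, the heavy chain of ferritin, stood at 7425 CPM against 23213 in 4T1p and at 12019 against 23231 in 4T1m (log2 change -1.30, edgeR adjusted p = 7.73e-04), and Ftl1, its light chain, at 2672 against 8577 and 3388 against 6818 (-1.34, edgeR adjusted p = 5.61e-05). Both stayed called without cluster 8 (-0.93 and -0.96) and with clusters weighted equally (-0.86 and -0.81). Of the 12 iron and antioxidant genes tested, 4 were lower and 0 higher, beside 10.9% and 10.0% of all genes. Without cluster 8, 2 of the 12 were lower, where 95 of all 7605 genes were. With clusters weighted equally 2 were lower, where 7 of all 7667 were. Tmsb4x, which binds actin monomers, was at 7566 against 16961 and 9795 against 15060 (-0.89, edgeR adjusted p = 0.0196), a call lost without cluster 8.

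Among the named chemokine and monocyte genes, several were called lower. Cxcl3, a neutrophil-drawing chemokine, stood at 36.6 CPM against 259 in 4T1p and at 205 against 1102 in 4T1m (-2.56, edgeR adjusted p = 1.70e-18), and Cxcl1, of the same family, at 529 against 1660 and 1164 against 4072 (-1.73, edgeR adjusted p = 3.21e-09). Of 16 tested inflammatory cytokines and NF-κB targets 7 were lower and 0 higher, beside 10.9% and 10.0% of all genes. Without cluster 8, 5 were lower, where 95 of all 7605 genes were. With clusters weighted equally 2 were lower, where 7 of all 7667 were. These calls moved with depth: among barcodes of 500 to 5000 UMIs outside the mt- genes Cxcl3 was at -0.24 and Cxcl1 at -0.67, neither called, and 6 of the 15 genes of the list tested there were higher and 2 lower, beside 21.8% and 37.3% of all genes. Chil3, a lectin of inflammatory monocytes, had 0 UMIs in monocytic-like members of 4T1p, which allows up to 6.10 CPM, against 52.0 CPM, and stood at 2.87 against 34.4 in 4T1m (edgeR adjusted p = 3.53e-11). Ly6c2, a gene of the Ly6C antigen, was at 6.10 against 31.0 and at 1.44 against 32.9 (-3.23, edgeR adjusted p = 6.41e-07), and Plac8 at 71.2 against 279 and 50.2 against 290 (-2.26, edgeR adjusted p = 1.77e-14). With clusters weighted equally none of Chil3, Ly6c2 and Plac8 was called (edgeR adjusted p = 0.124, 0.0643 and 0.0573). Chil3 was then at -3.93 (from -4.60), Ly6c2 at -3.46 and Plac8 at -1.39. Of 9 complement C1q and lipid handling genes 1 was higher and 2 were lower, near the 10.0% and 10.9% of all genes. C1qa and Apoe, among the macrophage markers, were not called: C1qa stood at 3264 against 4979 and 2343 against 2606 (-0.38, edgeR adjusted p = 0.306) and Apoe at 10669 against 15368 and 8292 against 8605 (-0.29, edgeR adjusted p = 0.522); at 500 to 5000 UMIs they were at -1.25 and -0.84, further down than the chemokines were there.

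Some cell cycle and interferon genes were called higher. Mki67, a protein of dividing nuclei, was at 307 CPM against 76.4 in 4T1p and at 301 against 92.5 in 4T1m (1.85, edgeR adjusted p = 9.19e-13), and Cenpf, of the kinetochore, at 34.6 against 13.4 and 45.9 against 8.79 (1.93, edgeR adjusted p = 7.34e-07). Of 15 tested cell cycle genes 4 were higher and 0 lower, beside 10.0% and 10.9% of all genes, and 4 were higher without cluster 8. With clusters weighted equally none was called (Mki67 at 0.96, edgeR adjusted p = 0.225, and Cenpf at 0.22, edgeR adjusted p = 0.868). At 500 to 5000 UMIs 1 of the 7 tested was higher and 5 lower, beside 21.8% and 37.3% of all genes, and Top2a turned from 1.32 to -1.13. Of 15 interferon-stimulated genes 5 were higher and 3 lower (median 0.31), beside 10.0% and 10.9% of all genes, with Ifit2 at 1.55 and Rsad2 at 1.01. Without cluster 8 none was higher and 1 was lower, and with clusters weighted equally none was called. At 500 to 5000 UMIs 6 of the 9 tested were higher and 2 lower (median 1.23), beside 21.8% and 37.3% of all genes. Of 21 death and p53 genes 2 were higher and 4 lower, beside 10.0% and 10.9% of all genes: Bcl2, which restrains apoptosis, at 38.6 against 12.4 and 31.6 against 12.4 CPM (1.48), and Bax, which permeabilizes the mitochondrial outer membrane, at 56.9 against 169 and 99.0 against 183 (-1.18). Without cluster 8 none of 20 tested was higher and 4 were lower, Bax among them (-0.79, edgeR adjusted p = 0.0475), and Bcl2 was at 1.05 (edgeR adjusted p = 0.297), and with clusters weighted equally none was called, with Bcl2 at 1.21 and Bax at -0.68 (edgeR adjusted p = 0.389 and 0.329).

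Of the other lists, 8 of 19 lysosomal, 4 of 12 heat shock, 3 of 9 mitophagy and 2 of 10 unfolded protein response genes were lower and none higher, beside 10.9% of all genes. Without cluster 8 these counts were 2, 0, 0 and 0, with the ribosomal RNA genes out of the totals 4, 0, 1 and 1, and with clusters weighted equally 0 in each list. Of all genes, 95 of 7605 were lower without cluster 8 and 345 of 7774 with the ribosomal RNA genes out. None of the 8 genes of mitochondrial genome upkeep was called in either direction. Of 7 integrated stress response genes 1 was higher and 0 lower, and of 17 immediate early genes 2 were higher and 1 lower, so these lists lay near the share of all genes. Among barcodes of 500 to 5000 UMIs outside the mt- genes 3 of 4 and 6 of 17 were higher and 0 lower. There 21.8% of all genes were higher and 37.3% lower.

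Markers of other cells moved beside these lists. Of the 11 tested granulocytic markers 6 were higher in monocytic-like members and 0 lower. Beside this and each count below in this paragraph, 10.0% of all genes were higher and 10.9% lower. The granulocytic markers summed to 3156 CPM against 1387 in 4T1p and 4180 against 2229 in 4T1m, S100a9 being the most abundant. Of 6 neutrophil granule genes tested 1 was higher and 2 were lower (median -0.72). The whole list summed to 1771 CPM against 1247 and 1860 against 1656, but Cybb alone made 1680 and 1639 CPM of the members' sums. Hdc, which makes histamine, was at 81.4 against 12.2 and 109 against 28.2 (2.27), and G0s2 at 102 against 19.8 and 175 against 49.6 (2.04). With clusters weighted equally they were at 0.13 and 0.29, S100a8 at -0.31 and S100a9 at -0.10. Erythroid markers were lower, 4 of 4 tested, at 22.4 against 10.3 CPM in 4T1p and 44.5 against 434 in 4T1m, so that the call rests on 4T1m. With called doublets left out Hbb-bs, the hemoglobin chain among them, turned from -2.75 to 1.18 (edgeR adjusted p = 0.0405). Pf4, a platelet chemokine also made by macrophages, was at 134 against 476 and 276 against 892 (-1.75). Natural killer cell markers had 0 UMIs in the members, against 2 UMIs in 4T1p and 1 in 4T1m, too few to be read. T cell markers were at 8.14 against 2.63 CPM and 12.9 against 5.36, and epithelial and tumor markers at 65.1 against 32.7 and 38.8 against 30.7. The counting interval spanned 0 for the former in 4T1p and for the latter in 4T1m. Dendritic, endothelial and mast cell markers moved in opposite directions in the libraries. Fibroblast markers, too low to be tested, were at 14.2 against 2.39 CPM in 4T1p and 28.7 against 5.21 in 4T1m, and B cell markers at 4.07 against 4.06 and 15.8 against 2.83. Of the lineage's own 14 markers tested, 0 were higher and 3 lower. The part of cells or free RNA of other types in the calls was not tested.

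**Figure D4:**
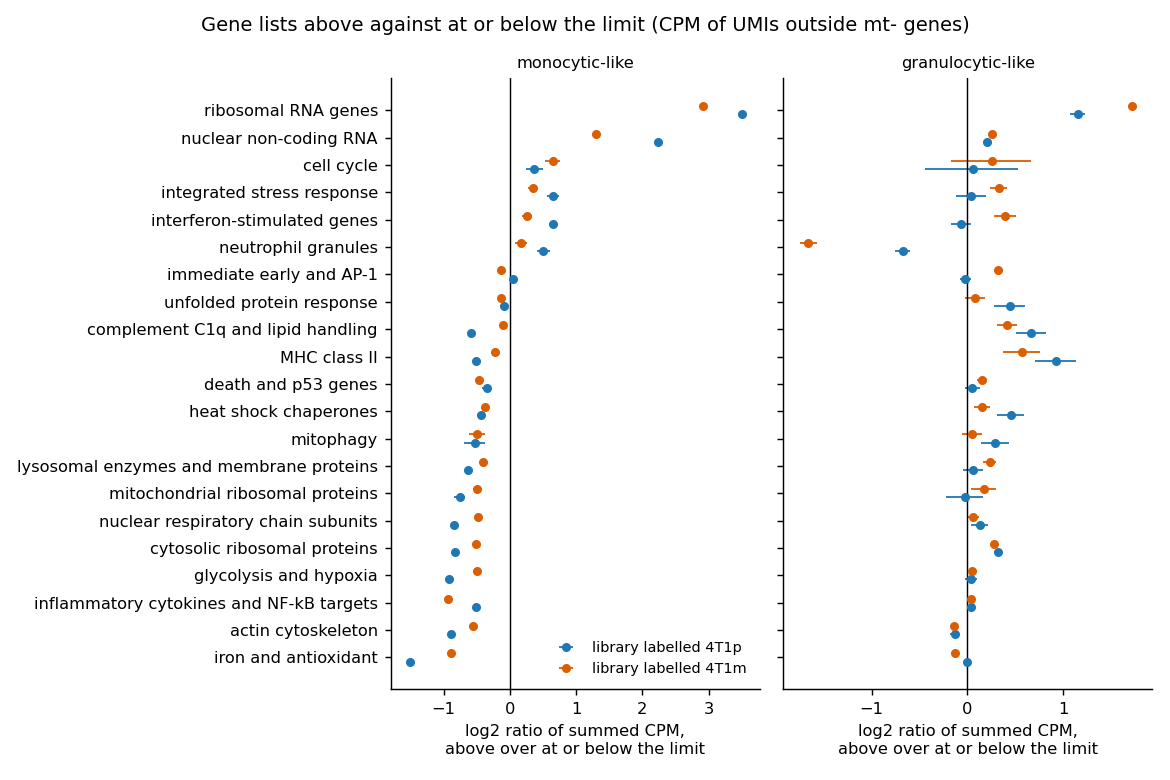
Log2 ratio of the summed CPM of each gene list in members over barcodes at or below the limit, per library and lineage, with exact 95% intervals from counting; the vertical line is no difference. In monocytic-like barcodes the ribosomal RNA and nuclear non-coding RNA lists lie highest and iron and antioxidant genes lowest in 4T1p (-1.51) and inflammatory genes in 4T1m (-0.93), whereas in granulocytic-like barcodes most lists lie near 0 and the neutrophil granule list is lowest.

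Some repeat and ribosomal RNA models were called higher in granulocytic-like members too. Of the list of Gm42418, AY036118 and Lars2 only Gm42418 was called, with AY036118 at 0.009 and Lars2 at 0.77. Gm26870 stood at 1453 CPM against 29.96 in 4T1p and at 790 against 136 in 4T1m (3.59, edgeR adjusted p = 5.93e-06), Gm20594 at 609 against 144 and 440 against 123 (1.94, edgeR adjusted p = 2.77e-07), and Gm42418 at 11273 against 4861 and 22204 against 6477 (1.498, edgeR adjusted p = 2.77e-07). Malat1 was not called here, at 33935 against 29809 and 44104 against 37263 (0.22, edgeR adjusted p = 0.282), nor was Fth1 (-0.09, edgeR adjusted p = 0.726). Csf3r, the receptor for G-CSF, was at 953 against 883 and 1042 against 937 (0.13, edgeR adjusted p = 0.762).

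Of 8 tested neutrophil granule genes, 4 were lower in these members and 0 higher (median -0.65), beside 0.482% and 1.18% of all genes. The list summed to 9103 CPM against 14506 in 4T1p and 3139 against 9919 in 4T1m. Camp, a cathelicidin, was at 2014 against 3570 and 32.2 against 1789 (-2.51, edgeR adjusted p = 0.0232), Ltf, lactoferrin, at 766 against 1334 and 102 against 844 (-1.77, edgeR adjusted p = 0.00218), and Ngp at 3014 against 5073 and 260 against 2863 (-1.995, edgeR adjusted p = 0.00334). The falls were much larger in 4T1m than in 4T1p, a difference between single libraries that was not tested. With clusters weighted equally Camp was at -1.77, Ngp at -1.29 and Ltf at -1.09, still called, while Lcn2 (from -0.72 to -0.30, edgeR adjusted p = 0.224) and Pglyrp1 (from -0.84 to -0.42, edgeR adjusted p = 0.186) were not. S100a8 and S100a9, which form calprotectin, were lower by less, S100a8 at 55004 against 70381 and 44335 against 72097 (-0.53, edgeR adjusted p = 0.00218). Ifitm6, an interferon-induced membrane protein family member, was at 344 against 899 and 419 against 1107 (-1.40, edgeR adjusted p = 8.64e-06), and Anxa1, annexin A1, at 531 against 1238 and 720 against 1416 (-1.09, edgeR adjusted p = 1.70e-04), though at -0.60 with clusters weighted equally and at -0.26, not called, among barcodes of 500 to 5000 UMIs.

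A few cytosolic ribosomal protein genes and macrophage genes were called higher here. Of 71 ribosomal protein genes tested 6 were higher and 0 lower (median 0.35), beside 1.18% of all genes and a median of 0.12, at 38293 CPM in members against 30685 in 4T1p and 30491 against 25074 in 4T1m; with the lineage by marker UMIs 0 of 78 were higher (median -0.02), and with the ribosomal RNA genes out of the totals 0 of 71 (median 0.37). C1qa was at 307 against 107 and 164 against 76.0 (1.28, edgeR adjusted p = 0.00124), Apoe at 748 against 348 and 532 against 270 (1.03, edgeR adjusted p = 2.52e-04) and Lgals1, galectin-1, at 187 against 81.1 and 156 against 68.3 (1.19, edgeR adjusted p = 0.00495). The monocytic markers summed to 1604 CPM against 803 and 1227 against 565, with 3 of 6 tested higher, and when the lineage was given by marker UMIs alone C1qa and Apoe turned to -0.014 and -0.33; both are among the monocytic markers that this assignment counts. With the ribosomal RNA genes out of the totals only 2 genes were called higher and 2 lower, Gm20594 and Apoe, and Ifitm6 and Anxa1, while DESeq2 called 3 and 9. The changes themselves hardly moved where those calls were lost, with Gm26870 at 3.61, Camp at -2.498, Ltf at -1.75 and C1qa at 1.30.

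The lineages were set against each other in a test of the difference itself, with edgeR's interaction term over both. The log2 change was higher in granulocytic-like than in monocytic-like barcodes for 204 of 8220 genes (2.48%) and lower for 61 (0.742%); TMM scaling, which moved the split most, gave 72 and 156. Fth1 (1.21 apart, not called with TMM, adjusted p = 0.141), Cxcl3 (2.24) and Chil3 (3.95) were among the former. Malat1 (-1.54, adjusted p = 0.000268), Xist (-1.58) and Gm42418 (-1.75) were among the latter. The granule genes Camp (-5.16), Ngp (-3.56) and Ltf (-3.13) were called there too. They were too low to be tested in monocytic-like barcodes alone and entered through the lineage where they are high, so nothing is read from their difference. Without cluster 8 the counts were 48 and 14, and Malat1 (-0.47, adjusted p = 0.561), Xist (-0.73, adjusted p = 0.207) and Fth1 (0.84, adjusted p = 0.0513) were no longer called, nor were Ngp and Ltf. Of 36 named genes with a difference 26 stayed called without it, and none changed sign.

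Across bins of the mitochondrial share, most of the movement in monocytic-like barcodes lay above the limit. In monocytic-like barcodes of 4T1p, Malat1 was at 11492 CPM up to 5%, 13485 from 5% to the limit, 35786 from there to 25%, 75772 from 25% to 50% and 119996 above 50%. In 4T1m the same bins gave 19438, 15959, 31326, 58924 and 83172, so that Malat1 was lower in the second bin than in the first there. The cytosolic ribosomal protein genes ran the other way, from 158142 in the first bin and 145348 in the second to 56164 CPM in 4T1p, and from 124511 and 124946 to 56820 in 4T1m, and Fth1 fell from 24529 up to 5% to 4525 between 25% and 50%, with 6389 above 50%, in 4T1p. Granulocytic-like barcodes showed neither slope: Malat1 stayed between 26899 and 48694 CPM in 4T1p and between 35297 and 46477 in 4T1m, and the ribosomal protein genes went up, from 29360 to 53101 and from 24391 to 38782. The highest bin of this lineage held only 7 and 10 barcodes.

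**Figure D5:**
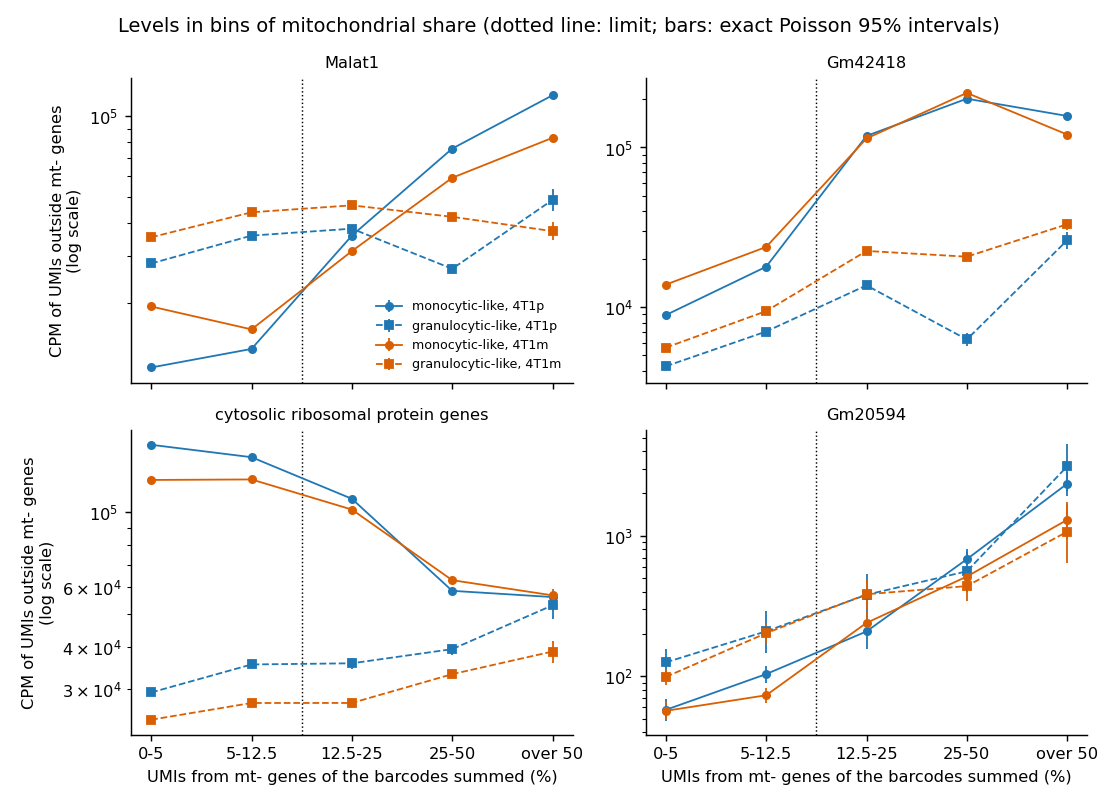
CPM of UMIs outside mt- genes (log axes) for Malat1, Gm42418, the cytosolic ribosomal protein genes and Gm20594 in 5 bins of mitochondrial share, per lineage and library, with exact 95% Poisson intervals; the dotted line is the limit. Above the limit Malat1 climbs and the ribosomal protein genes fall with the share in monocytic-like barcodes (solid), while below it they move little or, for Malat1 in 4T1m, the other way, whereas in granulocytic-like barcodes (dashed) the ribosomal protein genes do not fall and Gm20594 climbs in both lineages.

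Gm20594, the model that shares 65 bases with mt-Rnr2, climbed with the mitochondrial share in both lineages, from 58 to 2346 CPM in monocytic-like barcodes of 4T1p. Over all barcodes it had 1.22 UMIs per 1000 mitochondrial UMIs in members and 1.85 in the rest in 4T1p, and 1.04 and 1.61 in 4T1m. The rule chose members for many mitochondrial UMIs, which lowers any ratio to them, so nothing is read from this order.

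The make-up of the mitochondrial UMIs did not enter the rule. In granulocytic-like barcodes mt-Co1, a subunit of cytochrome c oxidase, took 17.3% of the mitochondrial UMIs of members against 21.6% in 4T1p and 17.2% against 21.3% in 4T1m, while mt-Cytb, of the cytochrome bc1 complex, took 9.37% against 7.77% and 8.83% against 7.27%. Of the subunits of the NADH dehydrogenase, mt-Nd1 took 6.01% against 5.16% and 5.95% against 4.51%, and mt-Nd3 1.58% against 1.12% and 1.61% against 1.19%, whereas mt-Nd5 took 0.723% against 0.846% and 1.24% against 1.34%. Both libraries moved in the same direction for each of these genes. Monocytic-like barcodes moved less, with mt-Co1 at 21.5% against 22.9% and 19.98% against 21.6% and mt-Cytb at 7.53% against 6.99% and 7.38% against 6.64%. These shares have 1 value per library and were not tested.

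The 134 members too shallow to be clustered were almost all mitochondrial RNA. Their median barcode held 1430 UMIs in 4T1p and 3771 in 4T1m, of which 102 and 130 lay outside the mt- genes, and Ptprc, the common leukocyte antigen, had a UMI in 1 of 106 and 2 of 28. Their remaining RNA still held 17.1% and 17.9% cytosolic ribosomal protein messengers, with Gm20594 at 18709 and 19664 CPM and Gm26870 at 31273 and 10544. In the members of cluster 14, Gm26870 alone made up 14.4% of the UMIs outside the mt- genes in 4T1p and 7.69% in 4T1m, and the 13 repeat models together 19.8% and 11.05%, beside 219037 and 103209 CPM of ribosomal protein messengers. No lineage was read from either set.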

How the data were processed

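The authors deposited filtered gene-by-barcode UMI counts of both libraries (whole numbers, not normalized; 10x 3′ v3, Cell Ranger, mm10 with Ensembl 93 genes; the matrix headers name software version 3.1.0). Genes numbered 28692, 13 of them mt-; 67 symbols occurred more than once and were kept apart by identifier. Members had more than 12.5% mt- UMIs and at most 27000 UMIs. Barcodes with at least 200 UMIs outside the mt- genes were clustered with scanpy 1.11.5 (target 10000, 2000 variable genes, 30 components, 15 neighbors, Leiden resolution 1) and named from at least 3 markers. Doublets were called at a rate of 1% per 1000 barcodes and kept; leaving them out was an alternative. Counts were summed per library, lineage and side of the limit and tested with edgeR 4.0.16 (R 4.3.3; quasi-likelihood, library as block, totals outside the mt- genes as library size, at least 100 UMIs in the 4 sums, Benjamini-Hochberg adjustment, called at 0.05); there is 1 residual degree of freedom per gene. P-values measure only the spread between these libraries. In simulated data 100 genes were changed at a log2 size of 1 and 100 at 2, all drawn from genes with at least 1000 UMIs in the 4 sums. Every gene was given the same fixed spread. In the monocytic-like comparison (7743 genes tested) 100% of these changed genes were found at both sizes, and in the granulocytic-like comparison (3306 genes) 83% and 100%. Changed genes of fewer UMIs or with a larger spread were not simulated, so these rates do not cover them. Named were the genes of the lists and, per lineage, the 12 highest and 12 lowest genes with at least 200 UMIs and intervals on the same side of 0 in both libraries; 1 gene that this rule names is not reported here. Members, markers and lists were chosen with earlier results of these data known. Alternatives were other limits, UMI windows, gene filters, scalings (TMM, ribosomal RNA genes out), DESeq2 1.42.0, lineage by resolution or marker UMIs, Ptprc-positive barcodes, equal cluster mix, doublets out and each library alone. Leaving out cluster 8, adding cluster 1 and leaving out barcodes over 50% were chosen after seeing the data. For the difference of the lineages, taking the ribosomal RNA genes out of the totals was not planned either. Sequences come from the Ensembl transcripts of the mm10 reference.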

Additional observations from a re-analysis of the deposited data

Results flagged for a closer look

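The difference between libraries or lineages named here is a difference under the same contrast, members over barcodes at or below the limit. Values are the granulocytic-like minus the monocytic-like log2 change, tested with edgeR's interaction term and Benjamini-Hochberg adjustment.

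Of 36 named genes that differed between the lineages, 20 had the higher change in granulocytic-like barcodes. Among messengers of cytosolic and secreted proteins these were Fth1 (1.21), Ftl1 (1.38), Eno1 (1.38), a glycolytic enzyme, Fabp5 (1.83), which binds fatty acids, Rpl3 (1.57), Lgals1 (1.93) and Fn1 (1.31, adjusted p = 0.0192). Monocyte genes were Ly6c1 (4.39, adjusted p = 0.0261), Ly6c2 (3.21, adjusted p = 0.0208), Chil3 (3.95), Plac8 (2.11), Cxcl3 (2.24), Pf4 (2.67), H2-Aa (1.65), C1qa (1.68) and Apoe (1.33, adjusted p = 0.00192). The rest were the chaperones Hspa1b (1.59) and Hspe1 (2.25), Mt1 (2.28), a metallothionein, and Hbb-bs (2.995), a hemoglobin chain. Ly6c1, Ly6c2 and Hbb-bs were too low to be tested in granulocytic-like barcodes alone. They passed the count filter only through monocytic-like barcodes, so nothing is read from their difference.

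The other 16 had the higher change in monocytic-like barcodes. Ribosomal RNA and nuclear RNA gave Gm42418 (-1.75), AY036118 (-1.55, adjusted p = 0.000194), Malat1 (-1.54), Neat1 (-1.03) and Xist (-1.58), beside Lars2 (-1.37). Neutrophil genes gave Camp (-5.16), Ngp (-3.56), Ltf (-3.13, adjusted p = 0.0369), Pglyrp1 (-2.76), Lcn2 (-1.94), Asprv1 (-1.91), S100a8 (-1.69), S100a9 (-1.85), G0s2 (-2.22) and Hdc (-2.12). Camp, Ngp, Ltf and Pglyrp1 were too low to be tested in monocytic-like barcodes alone. They passed the count filter only through granulocytic-like barcodes, so nothing is read from their difference. Without cluster 8 the difference was no longer called for Apoe, Eno1, Fth1, Lars2, Ltf, Ly6c1, Malat1, Neat1, Ngp and Xist. With TMM it was not called for Fth1 (adjusted p = 0.141), Fn1 (0.117) and Ly6c1 (0.0502), and with the ribosomal RNA genes out of the totals for Fn1 (0.0672), Ly6c1 (0.0537) and Ly6c2 (0.0510).

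In monocytic-like barcodes a pair of lists had counting intervals on opposite sides of 0 in the libraries, a difference that was not tested. The summed erythroid markers had a log2 ratio of 1.12 in 4T1p and -3.28 in 4T1m (4.41 apart), and the immediate early and AP-1 genes 0.05 and -0.14 (0.19 apart); with the ribosomal RNA genes out of the totals the latter list was at 0.27 and 0.07, higher in both.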

How the results depend on the processing

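The share of barcodes above the limit was 30.5% (4T1p) and 24.8% (4T1m) at a limit of 10%, 23.0% and 12.997% at 20%, and 20.2% in 4T1p with at least 250 genes. The monocytic-like share of members was 56.4% and 60.8% at resolution 0.5, 55.5% and 60.6% at 1.5, 69.8% and 55.6% by marker UMIs, and 65.0% in 4T1p with at least 250 genes, so that the number of members given to the lineage depends on the clusters. The granulocytic-like share was 19.6% and 39.5% by marker UMIs, 21.0% in 4T1p with at least 250 genes and 23.7% in 4T1m at a limit of 20%. The ratio of detected genes in monocytic-like barcodes was 0.962 after thinning to 1000 UMIs, against 0.936 at 500.

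For monocytic-like barcodes the numbers of genes called higher and lower were 499 and 370 at a limit of 10%, 287 and 194 with DESeq2, 266 and 170 with the lineage by marker UMIs, 78 and 95 without cluster 8, 1179 and 345 with the ribosomal RNA genes out of the totals and 7 and 7 with an equal cluster mix; with cluster 1 added, 498 were lower. For granulocytic-like barcodes the number called higher was 61 at a limit of 20%, 7 against barcodes up to 5%, 3 with DESeq2, 64 by marker UMIs, 2 with the ribosomal RNA genes out, 13 with a Ptprc UMI and 63 without barcodes over 50%. The number called lower was 7 against barcodes up to 5%, 41 with TMM, 25 without a filter on low counts, 9 with DESeq2, 49 by marker UMIs, 2 with the ribosomal RNA genes out and 25 without barcodes over 50%. For the difference of the lineages the counts were 72 and 156 with TMM, 93 and 97 with the ribosomal RNA genes out and 48 and 14 without cluster 8. Fewer barcodes enter where cluster 8, barcodes over 50% or barcodes without Ptprc are left out; otherwise the cause was not tested.

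In monocytic-like barcodes Top2a turned to -1.13 at 500 to 5000 UMIs, S100a8 and S100a9 to -0.31 and -0.10 with an equal cluster mix, Hbb-bs to 1.18 without doublets and 0.39 without the library labelled 4T1m (-3.17 without the other), C1qa to 0.17 against barcodes up to 5% and 0.20 without cluster 8, and Apoe to 0.023 and 0.24. In granulocytic-like barcodes with the lineage by marker UMIs, C1qa turned to -0.014, Mt1 to -0.22 and Apoe to -0.33, C1qa and Apoe being markers that this assignment counts. Of the named genes called, an equal cluster mix kept 10 of 42 in monocytic-like and 21 of 25 in granulocytic-like barcodes, the ribosomal RNA genes out of the totals kept 40 of 41 and 4 of 24, and leaving out cluster 8 kept 32 of 43. The comparison is within each library, with the library as its block; a library left out leaves values without a test. Counting error limits genes of few UMIs in the granulocytic-like members, of which there were 64 and 157.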
